A study of Mus musculus with 12 samples.

Results

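The genes that give a neuron its fast transmitter were followed across the brains of mice with and without chronic unpredictable mild stress (CUMS) and with and without krill oil. The set holds 7 genes, Slc17a7, Slc17a6, Slc17a8, Slc32a1, Gad1, Gad2 and Slc6a5, chosen by name from the 55385 genes of the expression table, and each name matched 1 row. All mice were male C57/BL6J, bought at 8 weeks of age, and each group gave 3 brains and 3 libraries. The C_W group had water and no CUMS, the C_O group was given krill oil daily for 5 weeks (200 mg/kg) and no CUMS, the MS_W group had CUMS for 4 weeks and water, and the MS_O group had CUMS for 4 weeks and the same krill oil. Water, not another oil, was the control for krill oil. Libraries are named by group and mouse number, such as MS_W95. Levels are in FPKM, in which fragments are divided by transcript length and by the library's total, so that levels of different genes can be compared per length.

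Neurons fill their synaptic vesicles with transmitter through dedicated transporters, and these genes are read as the identity of a neuron. The products of Slc17a7 (VGLUT1), Slc17a6 (VGLUT2) and Slc17a8 (VGLUT3) load glutamate, the main excitatory transmitter. Slc17a7 is used mostly by neurons of the cortex, hippocampus and cerebellar granule layer, Slc17a6 mostly by the thalamus, hypothalamus, brainstem and deep cerebellar nuclei, and Slc17a8 by scattered neurons of other transmitter types. Gad1 and Gad2 encode the enzymes GAD67 and GAD65, which make GABA from glutamate. Slc32a1 encodes the vesicular transporter that loads both GABA and glycine, and Slc6a5 encodes GlyT2, which takes glycine back into glycinergic nerve endings, mainly in the brainstem and spinal cord.

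In the regional markers that bear on these genes, 2 libraries, C_O72 and MS_W95, differed from the remaining 10. Cbln3, a cerebellar granule cell gene, had an FPKM of 60.9 in C_O72 and 222.0 in MS_W95 and at most 0.196 in the other 10 libraries, and Hoxb5, a hindbrain and spinal cord gene, had 9.78 and 3.83 against at most 0.0315. Conversely Nrgn, a marker of cortical and hippocampal excitatory neurons, was at 6.67 and 24.6 there and between 216.2 and 1085.5 in the other 10. The samples are labelled brain, whole brain in the study's methods, and the defining markers of the cerebellum and hindbrain were at or near 0 in 10 of the 12. Summed markers of neurons in general ranged from 1375.5 to 1472.4 in C_W and from 1131.5 to 1228.6 in MS_W, which lay wholly below. They ranged from 1290.2 to 1402.0 in C_O and from 1247.6 to 1402.1 in MS_O. Of these 8 genes, 5 were lower and 3 higher in MS_W against C_W with 12 libraries. Estimated counts summed to between 50912906 and 75678721 per library. Each comparison was therefore repeated on the remaining 10 libraries, where C_O and MS_W have 2 each.

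Positions are on GRCm38 as tabled by the authors, and they were identical in GENCODE release M21 for each gene. Slc17a7 (ENSMUSG00000070570) lay on chromosome 7 from 45163949 to 45176142, and Slc17a6 (ENSMUSG00000030500) on chromosome 7 from 51622006 to 51671119. Slc6a5 (ENSMUSG00000039728) also lay on chromosome 7, from 49910146 to 49963856, and Slc17a8 (ENSMUSG00000019935) on chromosome 10 from 89574020 to 89621253. The 3 GABA genes were all on chromosome 2, Gad2 (ENSMUSG00000026787) from 22622205 to 22693874, Gad1 (ENSMUSG00000070880) from 70553072 to 70602014 and Slc32a1 (ENSMUSG00000037771) from 158610767 to 158615748. Slc17a8 was on the minus strand and the other 6 on the plus strand. Slc32a1 has 2 exons in 4.98 kb, and the others have 12 to 17 exons. Of those, Slc17a7 spans 12.2 kb and the rest 47.2 to 71.7 kb. Runs of 50 bases shared with a transcript of another gene made up at most 1.49% of the runs of any member, in Gad1, whose pseudogene Gad1-ps had an FPKM of at most 0.436. None of the runs of Slc17a7, Slc17a6 or Slc32a1 was found in another gene. An exon of Slc32a1 overlaps the antisense gene Gm14205, which had an FPKM of at most 0.462, and whether strand was used in the authors' estimates is not given in the sources used here.

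The promoters of Slc17a7, which was lower in MS_W, and of Slc32a1, Gad1 and Gad2, whose means were higher in both CUMS groups, are shown because these genes carry the differences described here. They are the plus strand bases before the RefSeq start (GRCm38.p6), 250 bases or as many as precede the first base inside an annotated exon, and capitals mark CANNTG, the E-box bound by basic helix-loop-helix factors. The stretches are chr7:45163671-45163920 for Slc17a7, chr2:158610508-158610757 for Slc32a1, chr2:70561879-70562041 for Gad1 and chr2:22622077-22622204 for Gad2.
Slc17a7: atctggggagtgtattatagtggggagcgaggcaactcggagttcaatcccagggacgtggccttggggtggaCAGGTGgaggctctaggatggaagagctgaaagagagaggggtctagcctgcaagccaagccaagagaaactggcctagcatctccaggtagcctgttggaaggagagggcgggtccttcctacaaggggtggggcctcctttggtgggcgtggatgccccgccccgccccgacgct
Slc32a1: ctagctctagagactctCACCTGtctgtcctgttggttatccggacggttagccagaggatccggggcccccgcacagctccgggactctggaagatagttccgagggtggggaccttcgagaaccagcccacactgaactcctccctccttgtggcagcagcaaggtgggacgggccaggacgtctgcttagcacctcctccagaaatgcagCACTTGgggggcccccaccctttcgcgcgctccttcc
Gad1: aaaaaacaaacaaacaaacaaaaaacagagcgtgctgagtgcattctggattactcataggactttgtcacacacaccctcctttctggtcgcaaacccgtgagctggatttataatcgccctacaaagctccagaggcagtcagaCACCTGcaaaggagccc
Gad2: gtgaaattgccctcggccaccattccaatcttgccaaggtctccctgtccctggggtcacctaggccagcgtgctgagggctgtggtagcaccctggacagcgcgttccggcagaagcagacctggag
The E-box, which reads the same on both strands, was found in the 250 bases before the start of all 7 members and in 66.2% of the 32851 RefSeq mouse promoters. In Gad2 it lay in bases that are annotated as exon and are not printed. The RefSeq start of Gad1 lay 9057 bases inside the gene as tabled, so its stretch serves only transcripts that begin there. The GC box GGGCGG, searched on both strands, was found 3 times in Slc17a7, 1 time in Slc17a6 and 1 time in Gad1 (there in exon bases that are not printed), and in 32.7% of all promoters. TAATTA, the core bound by many homeodomain factors, was found in none of the 7 windows and in 4.84% of all promoters. These matches describe the letters of the windows only.

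In C_W mice the excitatory transporter Slc17a7 was the most abundant of the 7, with a mean FPKM of 271.3 ± 18.4 (SD, n = 3). Gad1 followed with 70.1 ± 19.4, Slc32a1 with 35.9 ± 6.58 and Gad2 with 24.7 ± 1.15, and the ranges of these 4 genes did not overlap. Slc17a6 was far lower with 3.54 ± 1.12 and Slc17a8 lower again with 0.599 ± 0.085. Slc6a5 was at the foot of the order, with at most 0.0538 in any C_W library. In MS_W mice this order was no longer clear, since the ranges of Slc17a7 (41.5 to 106.1), Gad1 (68.7 to 105.6) and Slc32a1 (60.2 to 75.5) overlapped. In MS_O mice Slc17a7 ranged from 163.6 to 239.0 and overlapped with Gad1 (67.7 to 198.2). Over the 12 libraries, the mean FPKM of Slc17a7 stood at the percentile 99.3 of the 21393 genes tested and that of Slc17a8 at 31.6.

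**Figure D1:**
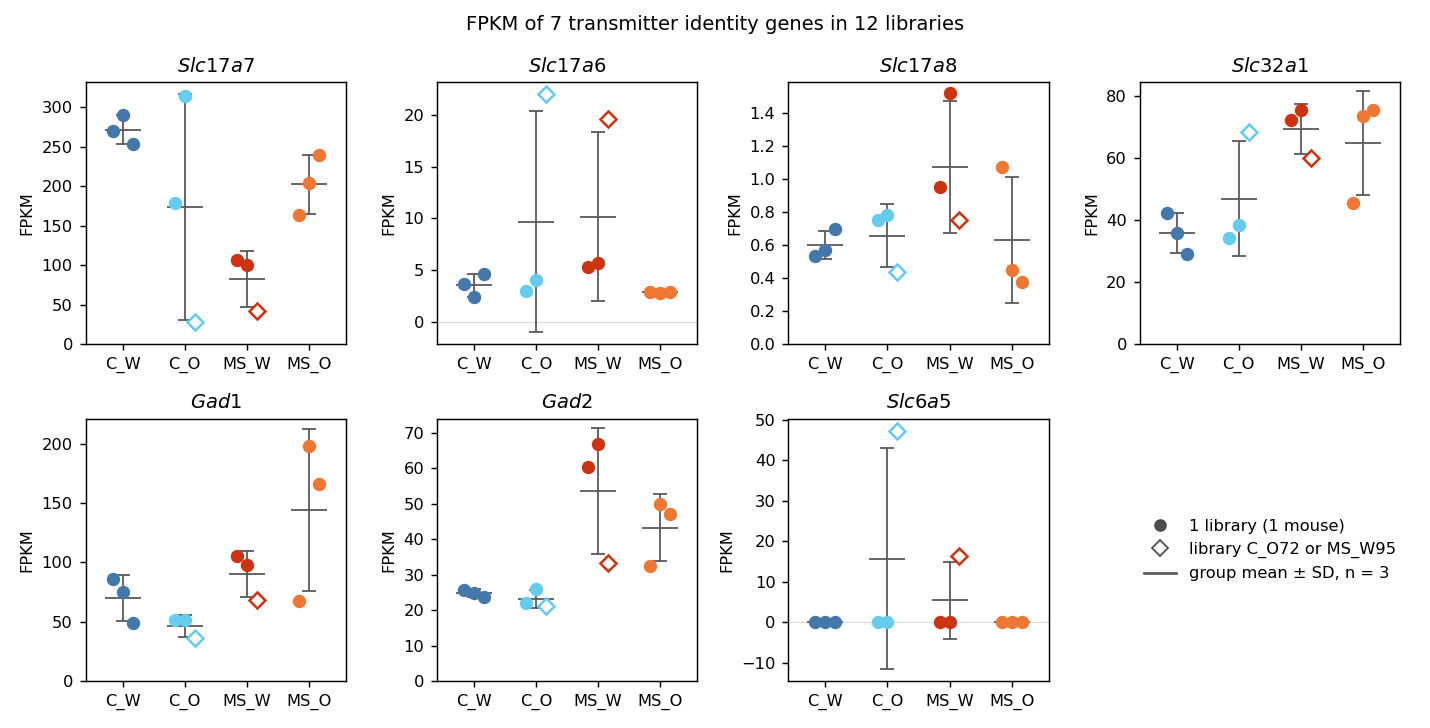
FPKM (y axis, linear) of the 7 genes by group (x axis). Each point is 1 library, open diamonds are C_O72 and MS_W95, and the bars are the group mean ± SD of 3 libraries. Gad2 lies between 32.4 and 67.0 in the 6 CUMS libraries and between 21.3 and 26.1 in the other 6, and Slc6a5 is above 0.0538 only in C_O72 and MS_W95.

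Slc17a7 had an FPKM of 270.0, 290.3 and 253.7 in the C_W libraries 1, 64 and 70, and of 106.1, 100.1 and 41.5 in the MS_W libraries 31, 75 and 95. All MS_W libraries were lower than all C_W libraries. The log2 fold change (log2FC, the difference between group means of log2(FPKM + 1)) was -1.82 (SE 0.71), which did not pass the test after adjustment over all genes (limma, adjusted p = 0.425). In the 10 libraries it fell by 1.39 on the log2 scale (SE 0.23, limma, adjusted p = 0.0344), and over the 24 alternatives tried the adjusted p ranged from 0.0344 to 0.87. In bulk tissue, fewer cells of a type and less RNA per cell cannot be told apart. In the krill oil groups Slc17a7 was 179.1, 314.5 and 28.1 in C_O libraries 15, 30 and 72, and 163.6, 204.7 and 239.0 in MS_O libraries 13, 46 and 78. These groups overlapped, and the direction rested on C_O72. The log2FC of MS_O against C_O was 0.77 (SE 0.71, limma, adjusted p = 0.762) with it and -0.25 (SE 0.23, limma, adjusted p = 0.65) in the 10 libraries.

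Slc17a6, the transporter of thalamic, hypothalamic and brainstem neurons, was highest in the same libraries in which Slc17a7 was lowest. It had an FPKM of 22.0 in C_O72 and 19.6 in MS_W95, which is 3.9 and 3.47 times the highest of the other 10 libraries. Among the other libraries, MS_W31 and MS_W75 had 5.25 and 5.65, above the C_W range of 2.38 to 4.62. The MS_O libraries lay close together between 2.77 and 2.89, just below the lowest C_O library at 2.98. MS_W was thus above C_W and MS_O below C_O without overlap, by 1.09 (SE 0.62, limma, adjusted p = 0.549) and -1.01 (SE 0.62, limma, adjusted p = 0.661) on the log2 scale. In the 10 libraries these were 0.54 (SE 0.20, limma, adjusted p = 0.253) and -0.22 (SE 0.20, limma, adjusted p = 0.632). No comparison of Slc17a6 passed the test.

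Slc17a8 was low everywhere, between 0.378 (MS_O78) and 1.52 (MS_W75). Its mean was 1.07 ± 0.401 in MS_W (SD, n = 3) and lay between 0.599 and 0.656 in the other groups. The MS_W libraries (0.751 to 1.52) were above the C_W libraries (0.533 to 0.695). The log2FC of 0.36 (SE 0.18, limma, adjusted p = 0.502) did not pass the test, and the pseudocount of 1 understates changes of a gene this low.

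Gad2, the GABA-synthesizing enzyme concentrated at nerve endings, separated all CUMS libraries from all others. Its FPKM was 25.8, 24.8 and 23.6 in C_W libraries 1, 64 and 70, and 21.9, 26.1 and 21.3 in C_O libraries 15, 30 and 72. In the CUMS mice it was 60.4, 67.0 and 33.3 in MS_W libraries 31, 75 and 95, and 32.4, 50.1 and 47.2 in MS_O libraries 13, 46 and 78. The lowest CUMS library, MS_O13, was therefore above the highest library without CUMS, C_O30. Of the 21393 genes tested, 0.823% had all 6 CUMS libraries above the other 6, and Gad2 was the 1 member among them. The effect of CUMS over both treatments was a log2FC of 0.94 (SE 0.17), rank 19 of all genes by p, and it did not pass after adjustment (limma, adjusted p = 0.21). It passed in the 10 libraries (log2FC 1.07, SE 0.12, limma, adjusted p = 0.0136). Over the alternatives the adjusted p of this effect ranged from 0.00104 with DESeq2 to 0.533.

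Within each treatment, all CUMS libraries were above those without CUMS. The log2FC of MS_W against C_W was 1.02 (SE 0.24, limma, adjusted p = 0.252), and that of MS_O against C_O was 0.86 (SE 0.24, limma, adjusted p = 0.479). In the 10 libraries MS_W against C_W was 1.33 (SE 0.17, limma, adjusted p = 0.013) and MS_O against C_O was 0.80 (SE 0.17, limma, adjusted p = 0.329). The interaction, which tests whether the CUMS effect differs between krill oil and water, was -0.17 (SE 0.34, limma, adjusted p = 0.881) with 12 libraries and -0.52 (SE 0.24, limma, adjusted p = 0.699) with 10.

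Slc32a1, the vesicular transporter for GABA and glycine, had an FPKM of 42.3, 36.0 and 29.2 in C_W libraries 1, 64 and 70, and of 72.2, 75.5 and 60.2 in MS_W libraries 31, 75 and 95. The MS_W libraries were all higher. The log2FC was 0.94 (SE 0.27, limma, adjusted p = 0.306), and 1.04 (SE 0.22, limma, adjusted p = 0.0787) in the 10 libraries. In the krill oil groups it was 34.2, 38.4 and 68.4 in C_O libraries 15, 30 and 72, and 45.7, 73.7 and 75.7 in MS_O libraries 13, 46 and 78. These groups overlapped through C_O72 alone. With C_O72 and MS_W95 both left out, the lowest CUMS library (45.7) was above the highest of the libraries without CUMS (42.3). The share of all genes separated in this way was not determined. The effect of CUMS over both treatments was 0.72 (SE 0.19, limma, adjusted p = 0.294) and, in the 10 libraries, 0.91 (SE 0.16, limma, adjusted p = 0.0489), within a range of 0.0108 to 0.627 over the alternatives.

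Gad1, the enzyme that makes GABA throughout the cell, differed most in the krill oil groups. Its FPKM was 51.7, 51.6 and 36.0 in C_O libraries 15, 30 and 72, and 67.7, 198.2 and 166.6 in MS_O libraries 13, 46 and 78. The MS_O libraries were all higher, but MS_O13 was far below the other 2. The log2FC was 1.49 (SE 0.37, limma, adjusted p = 0.479), and 1.32 (SE 0.42, limma, adjusted p = 0.335) in the 10 libraries. Without MS_O13 it was 1.96 (limma, adjusted p = 0.0302), and DESeq2 on the estimated counts gave 1.55 (adjusted p = 0.0152), within a range of 0.0152 to 0.957 over the alternatives. On water, Gad1 was 86.2, 75.4 and 48.6 in C_W libraries 1, 64 and 70, and 105.6, 97.6 and 68.7 in MS_W libraries 31, 75 and 95. These groups overlapped (log2FC 0.38, SE 0.37, limma, adjusted p = 0.702).

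Slc6a5, the glycine transporter of brainstem and spinal neurons, was near 0 in all but 2 libraries. Its FPKM was 47.2 in C_O72 and 16.4 in MS_W95, and at most 0.0538 in the other 10, 2 of which, C_W64 and MS_W31, listed it at 0.0001, the value given to a gene without an estimate. C_O72 and MS_W95 belong to different groups, and neither shares a treatment with the other. The gene met the minimum mean FPKM of 0.1 for testing through these 2 libraries alone. Its difference in MS_W against C_W, 1.34 (SE 1.43, limma, adjusted p = 0.725) on the log2 scale, and that in C_O against C_W, 1.85 (SE 1.43, limma, adjusted p = 0.908), therefore each rested on 1 library. In the 10 libraries the log2FC lay between -0.03 and 0.04 in the 4 pairwise comparisons.

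Counted over the comparisons, no member passed an adjusted p of 0.05 in any of the 7 fitted with 12 libraries (limma). In MS_W against C_W, where 0.00467% of all tested genes passed by limma, 3 members had an unadjusted p under 0.05, beside 10.5% of all genes. There edgeR called 0 members and 1 of all genes, and DESeq2 called 1 member, Gad2, and 389 of all genes. In MS_O against C_O, where again 0.00467% of all genes passed by limma, 2 members had an unadjusted p under 0.05, beside 8.88% of all genes. Here edgeR called 0 members and 1 of all genes, and DESeq2 called 1 member, Gad1, and 172 of all genes. With 10 libraries, 2 members passed in MS_W against C_W, Slc17a7 lower and Gad2 higher, where 1.15% of all genes passed. Gad2 and Slc32a1 passed for the effect of CUMS over both treatments, where 0.762% of all genes passed, against 0.00935% with 12 libraries. With 12 libraries 3 members, Gad2, Slc32a1 and Gad1, had an unadjusted p under 0.05 for this effect, beside 12.5% of all genes. No member passed in the other 5 comparisons of the 10 libraries, where 0.014% (MS_O against C_O), 0.00467% (C_O against C_W), 0.271% (MS_O against MS_W), 0.0561% (krill oil) and 0.145% (interaction) of all genes passed. The groups did not overlap for 5 of the 7 members in MS_W against C_W, 4 higher and 1 lower, beside 16.3% of all genes higher and 8.22% lower. In MS_O against C_O this held for 2 members higher and 1 lower, beside 8.9% and 3.29% of all genes. The median log2FC of the members in MS_W against C_W, Slc6a5 included, was 0.94 with 12 libraries and 0.54 with 10, beside 0.06 and 0.04 over all genes tested. With 10 libraries, 5 members in MS_W against C_W, 3 in MS_O against C_O and 4 for the effect of CUMS had an unadjusted p under 0.05 (limma), beside 15.4%, 13.6% and 22.2% of all genes. With these libraries, groups of 2 or 3 did not overlap for 5 members higher and 1 lower in MS_W against C_W, beside 25.2% and 13.7% of all genes. In MS_O against C_O this held for 3 higher and 1 lower, beside 18.9% and 7.9%.

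**Figure D2:**
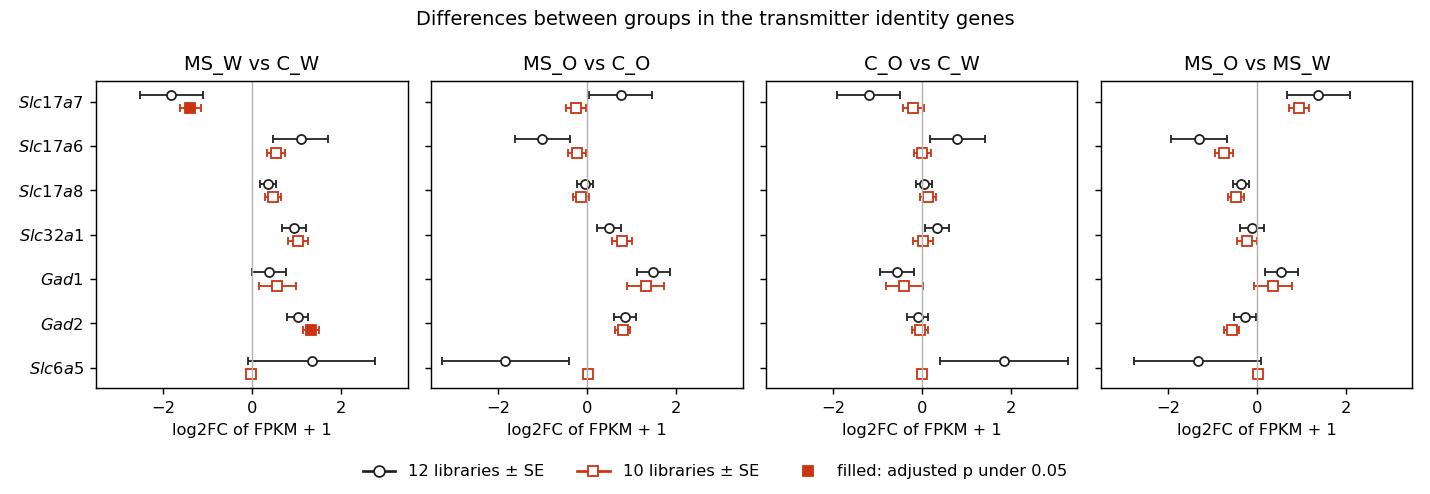
Differences between groups (x axis, log2FC of FPKM + 1, first group minus second, bars ± SE) for the 7 genes (y axis) in 4 comparisons. Black circles are the fit of 12 libraries and red squares that of 10, and filled symbols have an adjusted p under 0.05, which holds for Slc17a7 (-1.39) and Gad2 (1.33) in MS_W against C_W with 10 libraries.

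Krill oil was compared with water in mice without and with CUMS. Without CUMS, C_O and C_W overlapped for all 7 members, beside 4.08% of all genes higher and 5.34% lower without overlap. No member reached an unadjusted p under 0.05 by limma, beside 3.55% of all genes. By edgeR and DESeq2 0 members were called, beside 0 and 54 of all genes. With 10 libraries, 0 members had an unadjusted p under 0.05, beside 4.06% of all genes, and 1, Slc17a8, was higher without overlap, beside 8.32% of all genes higher and 11% lower. The log2FC of Slc17a7 was -1.20 (SE 0.71, limma, adjusted p = 0.908), and -0.19 (SE 0.23) in the 10 libraries. With CUMS, Slc17a7 was higher in every MS_O library than in any MS_W library. The log2FC was 1.38 (SE 0.71, limma, adjusted p = 0.829), and 0.95 (SE 0.23, limma, adjusted p = 0.257) in the 10 libraries. Slc17a6 was lower in every MS_O library (log2FC -1.30, SE 0.62, limma, adjusted p = 0.819, and -0.75, SE 0.20, adjusted p = 0.31 in the 10 libraries), and with 12 libraries these were the 2 members without overlap, beside 4.64% of all genes higher and 7.66% lower. No member was called in this comparison by limma, where 0 had an unadjusted p under 0.05, beside 6.09% of all genes. Nor was any member called by edgeR or DESeq2, which called 1 and 79 of all genes. With 10 libraries, 4 members (Slc17a7, Slc17a6, Slc17a8 and Gad2) had an unadjusted p under 0.05 (limma), beside 8.54% of all genes. Without overlap, 2 members were higher, Slc17a7 and Slc6a5, and 2 lower, Slc17a6 and Gad2, beside 9.27% and 13% of all genes. Slc6a5 was very low in both groups there, at 0.0285 to 0.0414 in MS_O and at 0.0001 and 0.018 in MS_W. Averaged over mice with and without CUMS, 0 members had an unadjusted p under 0.05 for krill oil (limma), beside 3.22% of all genes, and 3 (Slc17a7, Slc17a6 and Gad2) in the 10 libraries, beside 4.96%. The interaction was 2.58 (SE 1.00) for Slc17a7 and -2.10 (SE 0.88) for Slc17a6 (limma, adjusted p = 0.665 for both), the 2 members with an unadjusted p under 0.05, beside 7.23% of all genes. In the 10 libraries it was 1.14 (SE 0.33, limma, adjusted p = 0.411) for Slc17a7 and -0.76 (SE 0.28, limma, adjusted p = 0.575) for Slc17a6. Without C_O72 alone that of Slc17a7 was 1.57, and over the alternatives its adjusted p ranged from 0.312 to 1.0. These and Slc17a8 were the 3 members with an unadjusted p under 0.05 in the 10 libraries, beside 7.51% of all genes. MS_W against C_W and MS_O against MS_W share the MS_W libraries, so opposite signs in them are not separate observations.

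Within each library, the balance between the genes was described by ratios of FPKM, which are not affected by the scaling of a library. Slc17a7 made up 97.9% to 99.0% of the summed FPKM of the 3 glutamate transporters in C_W and 97.6% to 98.7% in MS_O. It made up 94.5% in MS_W31 and 93.3% in MS_W75, and 67.1% in MS_W95 and 55.6% in C_O72. The share of Slc17a7 was thus below that of every other library in the 3 MS_W libraries and C_O72. The summed glutamate transporters were 7.83 ± 1.23 times Slc32a1 in C_W (SD, n = 3), 3.23 ± 0.423 times in MS_O and 1.33 ± 0.275 times in MS_W. In C_O the ratio was 5.35 in C_O15, 8.32 in C_O30 and 0.74 in C_O72. The ranges of C_W (6.47 to 8.88), MS_O (2.82 to 3.67) and MS_W (1.03 to 1.56) did not overlap. With C_O72 and MS_W95 both left out, every CUMS library had a lower ratio than every library without CUMS.

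The mean ratio of Gad1 to Gad2 was lower with CUMS on water and higher with CUMS on krill oil. On water the ratio was 2.81 ± 0.666 without CUMS and 1.76 ± 0.304 with it (SD, n = 3). On krill oil it was 2.01 ± 0.338 without CUMS and 3.19 ± 0.979 with it. The ranges met on water, with 2.06 to 3.34 in C_W and 1.46 to 2.06 in MS_W. On krill oil they overlapped, with 1.69 to 2.36 in C_O and 2.09 to 3.95 in MS_O. These ratios were not tested. MS_O46 and MS_O78, with 3.95 and 3.53, were above all other libraries, and MS_O13 had 2.09. The lowest ratio was 1.46 in MS_W75. Over the 10 libraries, summed Gad1 and Gad2 stayed between 2.02 and 3.37 times Slc32a1, MS_W95 had 1.69, and C_O72 had 0.839, where Slc32a1 was high, Slc6a5 present and both Gad genes at their lowest.

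**Figure D3:**
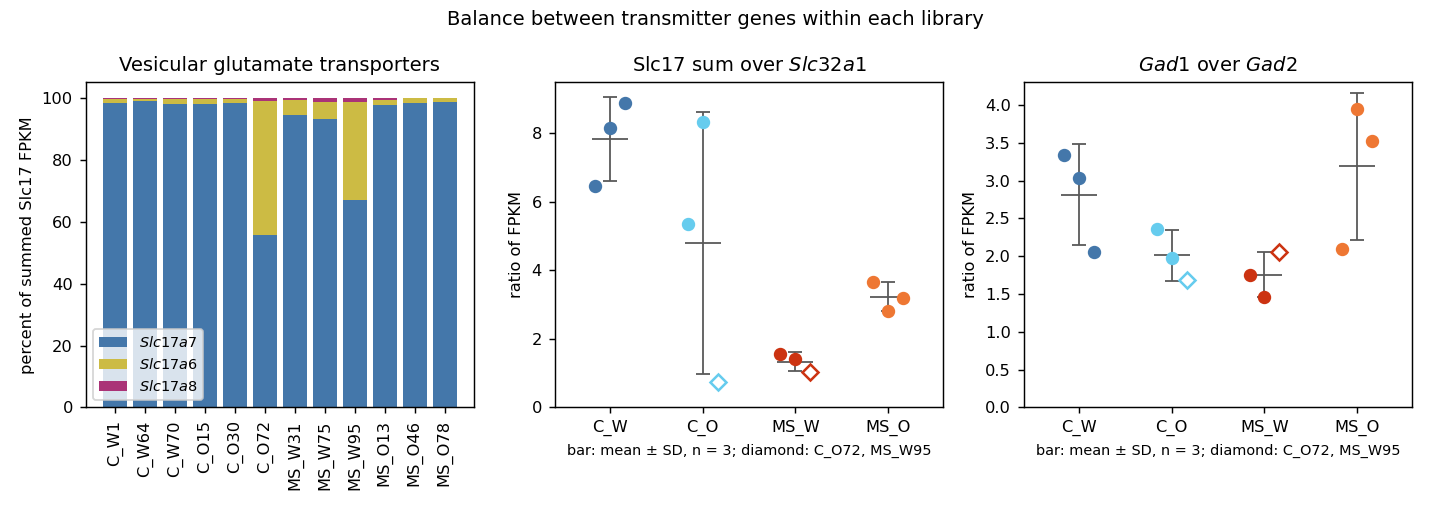
Left, the share (percent, y axis) of the summed FPKM of Slc17a7, Slc17a6 and Slc17a8 held by each in the 12 libraries (x axis). Middle and right, the ratio of summed Slc17 FPKM to Slc32a1 and of Gad1 to Gad2 by group, with 1 point per library, open diamonds for C_O72 and MS_W95, and bars for the mean ± SD of 3 libraries. The Slc17 to Slc32a1 ratio is 1.03 to 1.56 in MS_W and 6.47 to 8.88 in C_W.

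The other genes that supply, take up and break down these transmitters were measured beside the members. With 12 libraries limma and edgeR called none of these 30 genes in any comparison. DESeq2 called 1 glutamate gene, Slc38a3, in MS_O against C_O, where it called 172 of the 21393 genes tested. It called 1 glycine receptor gene, Glra3, in MS_O against MS_W, where it called 79 of all genes. Of 13 genes of glutamate supply and uptake, none passed the adjusted threshold in MS_W against C_W by limma, and 1 had an unadjusted p under 0.05, beside 10.5% of all genes. The most abundant was Glul, glutamine synthetase of astrocytes, between 362.6 and 558.4, with a log2FC of -0.20 (SE 0.16). The one with the largest difference was Slc1a6, a glutamate transporter of Purkinje cells. It had an FPKM of 24.6 in C_O72 and 56.0 in MS_W95 and of 3.12 to 5.24 in the other 10 libraries.

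Of 6 genes of GABA uptake and breakdown, all had a log2FC above 0 in MS_W against C_W, with a median of 0.51 beside 0.06 over all genes. None passed the adjusted threshold by limma, and 3 had an unadjusted p under 0.05, beside 10.5% of all genes. Abat, the transaminase that breaks down GABA, had an FPKM of 38.0, 36.4 and 35.6 in C_W and 63.6, 64.2 and 71.5 in MS_W libraries 31, 75 and 95. The groups did not overlap (log2FC 0.84, SE 0.25, limma, adjusted p = 0.312), and Abat rose by 0.78 (SE 0.14, limma, adjusted p = 0.0433) in the 10 libraries. There it was the only 1 of the 6 to pass, beside 1.15% of all genes, and no gene of the glutamate or glycine lists passed. Abat was 76.6 in C_O72, above all others. Slc6a11 (GAT3), a GABA transporter of astrocytes, ranged from 26.1 to 101.8, and its log2FC was 0.84 (SE 0.48) in MS_W against C_W and 0.69 (SE 0.48) in MS_O against C_O.

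Of 11 genes of glycine supply, uptake, cleavage and reception, 0 passed in MS_W against C_W by limma and 2 had an unadjusted p under 0.05, beside 10.5% of all genes, with a median log2FC of 0.28 beside 0.06. Glrb, the beta subunit of the glycine receptor, was the most abundant, with an FPKM of 36.7 to 63.8 and a log2FC of -0.11 (SE 0.17). Glra1, the adult alpha subunit of brainstem and spinal cord, followed Slc6a5, with 10.2 in C_O72 and 2.79 in MS_W95 and at most 0.365 in the other 10 libraries.

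Regional markers differed between groups as well, also beyond C_O72 and MS_W95. Summed over 8 genes, markers of cortical and hippocampal excitatory neurons ranged from 1309.7 to 1481.2 in C_W, from 76.0 to 672.2 in MS_W, from 438.1 to 1390.6 in MS_O and from 41.3 to 1588.7 in C_O. Summed over 5 genes, Dlx and other markers of olfactory bulb interneurons, which are GABAergic, ranged from 23.9 to 88.3 in MS_O, against 10.7 to 30.1 in C_W, 0.215 to 42.3 in MS_W and 0.215 to 17.3 in C_O. Dlx1 was highest in MS_O46 and MS_O78, with 31.7 and 28.9, the libraries with the highest Gad1. Summed over 8 genes, markers of striatal projection neurons, which are also GABAergic, ranged from 62.5 to 526.0 in MS_W and 146.9 to 356.1 in MS_O, against 48.4 to 102.5 in C_W and 50.2 to 261.5 in C_O. Ppp1r1b (DARPP-32) was 170.1 in MS_W31 and 260.9 in MS_W75, the libraries with the highest Gad2, and at most 59.9 in C_W. It was 192.5 in MS_O13, which had the lowest Gad2 of the CUMS libraries. In C_O30 it was 140.8 beside a Gad2 of 26.1. In MS_O46 and MS_O78 it was lower, 97.6 and 76.8, beside a Gad2 of 50.1 and 47.2. Summed over 5 genes, hypothalamic markers were 1.4 to 3.46 in MS_W, 0.0324 to 0.0696 in C_W, 0.11 to 0.326 in MS_O and 0.0821 to 3.48 in C_O. The sum in C_O72, the highest, was mostly Otp (3.24), with Nkx2-1 and Sim1 listed at 0.0001. MS_W95 likewise had Otp at 1.07 and Nkx2-1 at 0.0001. Nkx2-1 was 1.37 in MS_W31 and 1.59 in MS_W75, and at most 0.247 elsewhere. Of the 5 genes, 4 were listed at 0.0001 in at least 3 libraries. Forebrain interneuron markers, led by Sst, Pvalb and Lamp5, ranged from 157.8 to 371.1 in MS_O, against 338.3 to 433.2 in C_W, 320.0 to 488.3 in MS_W and 367.7 to 492.6 in C_O. The upper ends in C_O and MS_W were C_O72 and MS_W95, through Pvalb (294.4 and 396.1), while Sst (90.1 and 59.7), Vip and Lhx6 were lowest of the 12 there. Among other cells, C_O72 and MS_W95 were highest in summed markers of oligodendrocytes (1184.3 and 624.1, against at most 473.7), astrocytes (559.3 and 462.2, against at most 192.1) and choroid plexus (4814.1 and 1806.1, against 5.16 to 839.3). The part of these regional differences in the levels of the members was not tested.

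**Figure D4:**
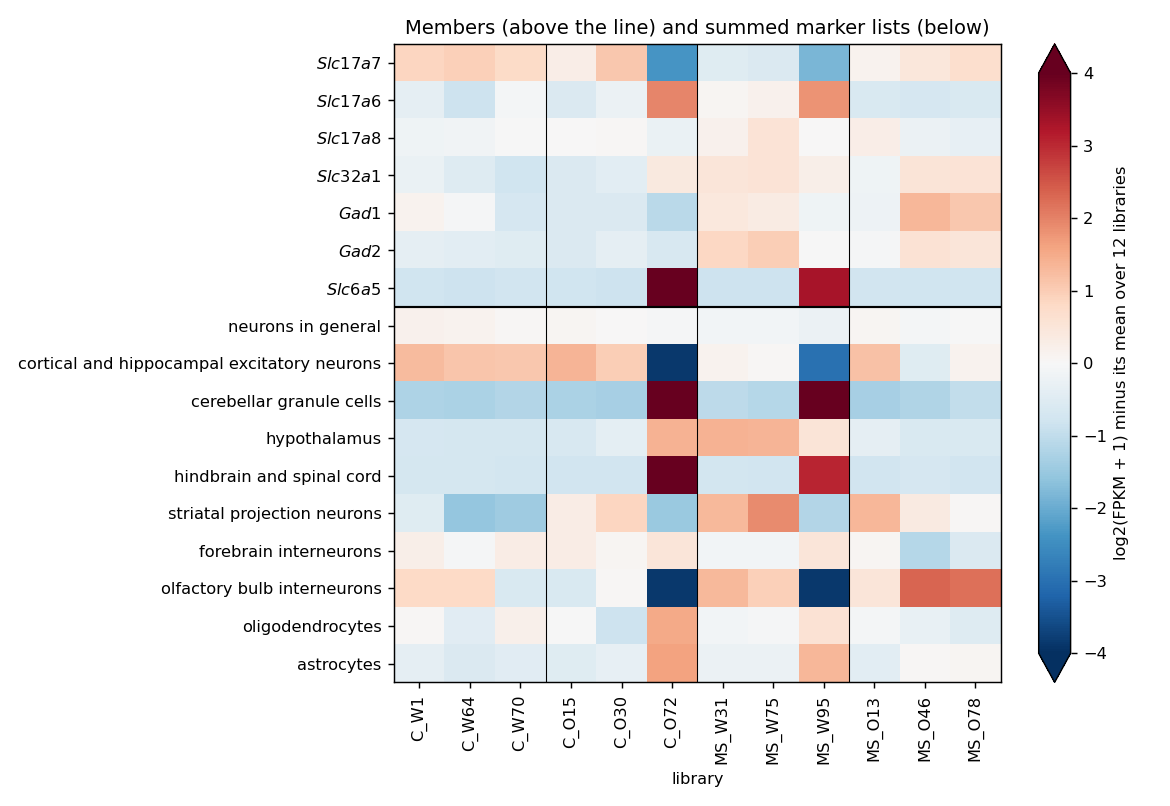
Each row is a member (above the line) or the summed FPKM of a marker list (below), each column a library, and colour is log2(FPKM + 1) minus the row's mean over 12 libraries, saturated at 4 units either side of 0. C_O72 and MS_W95 are low for Slc17a7 and cortical markers and high for Slc17a6, Slc6a5, cerebellar and hindbrain markers, and Gad1 is highest in MS_O46 and MS_O78, where olfactory bulb markers are also highest.

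Among the members, the pattern over the 12 libraries was closest between Slc32a1 and Gad2, whose log2(FPKM + 1), each centred on its own mean, differed by 0.238 per library on average. Gad1 differed from Gad2 by 0.377 and from Slc32a1 by 0.395, while Slc17a7 differed from Slc17a6 by 1.53 and from Slc6a5 by 2.03. By the same measure, the genes most like each member were sought among the 13615 tested genes whose FPKM averaged 1 or more. For Slc17a7 they were Krt12 (0.272), Ankrd33b (0.313) and Cacnb3 (0.317), where the median over all candidates was 0.903. For Slc17a6 they were Cd83, Zfp521 and Cda (0.206 to 0.225), and for Slc17a8 they were Ivns1abp, Pcdhga7 and Tomm70a (0.0716 to 0.0904). For Gad2 they were Pou3f4 (0.124), Qpct (0.174) and Sox1 (0.183), against a median of 0.493. For Slc32a1 they were Adgrg1, Scg2 and Ap1s2 (0.109 to 0.116), and for Gad1 they were Gcnt1, Igfbpl1 and Rhcg (0.162 to 0.185). For Slc6a5 they were Dao, Mab21l2 and Prph (0.355 to 0.379). All libraries and their differences in region enter these measures.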

How the data were processed

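Poly(A) RNA from 12 mouse brains, 3 per group, was sequenced as 1 library per mouse. The study's methods call the tissue whole brain, while the defining cerebellar and hindbrain markers were at or near 0 in 10 of the 12 libraries. The deposited table gives FPKM values and estimated counts for 55385 genes, which the authors made with cutadapt 1.9, HISAT2 2.0.4, StringTie 1.3.4d and Ballgown on mm10 (GRCm38). The deposited estimated counts were compared with FPKM and length in 2513 genes with 1 transcript and a mean FPKM of at least 1. After scaling each library by its median, they matched with a median deviation of 0.0969%. FPKM and estimated counts thus hold the same information for these genes, and the check cannot tell how the counts were made. How reads with several alignments were handled is not given in the sources used here. The members and gene lists were chosen with earlier results of these data known. Values were tested as log2(FPKM + 1) with the trended eBayes of limma 3.58.1 (R 4.3.3). All 4 groups entered 1 fit, genes whose FPKM averaged below 0.1 were left out, 21393 were tested two-sided, and p was adjusted over all of these (Benjamini-Hochberg). The fit was checked on simulated data. Comparisons were 4 pairs of groups, the effects of CUMS and of krill oil, and their interaction. Alternatives were pseudocounts of 0.1 and 0.01, other filters and scalings, fits of only the groups compared, robust eBayes, array weights, edgeR 4.0.16 and DESeq2 1.42.0 on the estimated counts rounded to whole numbers, each library left out in turn, and C_O72 and MS_W95 left out together. Named besides the members are the 3 genes most like each member, the most abundant gene and the gene with the largest difference in each transmitter list, list genes past the adjusted threshold in a pair of groups, and the most abundant markers. Hoxb5, Dlx1, Slc38a3, Glra3, Gad1-ps and Gm14205 were named after their values were seen. Some genes of the lists are not reported here. Promoters are from RefSeq, and all 7 members matched. p-values of the main fit rest on the spread between mice within all 4 groups together, moderated over genes. There were 3 mice per group, or 2 in C_O and in MS_W with 10 libraries.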

Additional observations from a re-analysis of the deposited data

Results flagged for a closer look

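Slc17a6 went in opposite directions under CUMS with water and with krill oil. Every MS_W library (5.25, 5.65 and 19.6 FPKM) was above every C_W library (at most 4.62), and every MS_O library (at most 2.89) was below every C_O library (at least 2.98). The test of the difference itself, the interaction, was -2.10 on the log2 scale (SE 0.88, limma, adjusted p = 0.665) and -0.76 (SE 0.28, limma, adjusted p = 0.575) in the 10 libraries without C_O72 and MS_W95, and did not pass in either. The libraries with the highest Slc17a6, C_O72 and MS_W95, were also those with cerebellar and hindbrain markers, and their part in this difference was not tested beyond leaving them out.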

How the results depend on the processing

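With C_O72 and MS_W95 left out together, 2 members passed the adjusted threshold in MS_W against C_W and 2 for the effect of CUMS, against 0 in each with 12 libraries. Array weights gave 3 and 3, in fits that called 824 and 2127 of all genes, and DESeq2 gave 1 and 2 with 389 and 310 of all genes, and 1 with 172 in MS_O against C_O. Leaving out single libraries gave 0 to 1 in MS_W against C_W (1 without MS_W95) and 0 to 1 in MS_O against C_O (1 without MS_O13). For the effect of CUMS it gave 0 to 2 (1 without MS_W95, 2 without MS_O13). The fits that called members called 58 of all genes in MS_W against C_W and 112 in MS_O against C_O. For CUMS they called 29 of all genes without MS_W95 and 93 without MS_O13. The other 4 comparisons kept 0 members under all alternatives. Of 1148 fold changes of members refitted, 1080 kept their direction and side of the threshold, 19 passed it newly and 49 changed sign. None of the sign changes was of a called value, and the causes were not tested. Without C_O72 and MS_W95, Slc6a5 changed sign in MS_W against C_W (-0.026), MS_O against C_O (0.015), C_O against C_W (-0.0065), MS_O against MS_W (0.035) and the interaction (0.042), Slc17a7 in MS_O against C_O (-0.25) and Slc32a1 in the krill oil effect (-0.093). For Slc17a6 the effect of CUMS, 0.044, became -0.019 with quantile normalization, -0.040 with centred libraries, -0.19 with edgeR and -0.20 with DESeq2. For Gad1 the krill oil effect, -0.0076, became 0.011 with centred libraries, 0.13 with array weights, 0.047 with edgeR and 0.047 with DESeq2. Leaving out 1 library at a time, Slc6a5 ranged from -0.026 to 2.04 (MS_W against C_W), -2.77 to 0.015 (MS_O against C_O), -0.0065 to 2.78 (C_O against C_W), -2.03 to 0.035 (MS_O against MS_W), -0.93 to 0.68 (CUMS) and -0.67 to 0.94 (krill oil). Slc17a7 ranged from -0.25 to 1.47 (MS_O against C_O) and -0.26 to 0.60 (krill oil), Slc17a8 from -0.22 to 0.069 (MS_O against C_O) and -0.011 to 0.14 (C_O against C_W), and Slc32a1 from -0.24 to 0.11 (MS_O against MS_W) and -0.045 to 0.22 (krill oil). Slc17a6 ranged from -0.24 to 0.44 (CUMS) and -0.65 to 0.027 (krill oil), Gad1 from -0.16 to 0.23 (krill oil) and Gad2 from -0.47 to 0.023 (interaction). On the scale of estimated counts, which favours long transcripts, the Slc17 to Slc32a1 ratio was 15.1 in C_W, 2.57 in MS_W, 6.22 in MS_O and 9.26 in C_O, in the same order as with FPKM. Over all genes, the number past the threshold was 1 in MS_W against C_W (0 to 824 over the alternatives), 1 in MS_O against C_O (1 to 172), 0 in C_O against C_W (0 to 54), 1 in MS_O against MS_W (1 to 105), 2 for CUMS (0 to 2127), 1 for krill oil (0 to 12) and 0 for the interaction (0 to 151). No paired analysis was possible because the groups share no replicate numbers. Levels under 1 FPKM, as of Slc17a8 and of Slc6a5 in 10 libraries, are the least certain here.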
